A study of Mus musculus with 18 samples.

Results

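Peptidases of the brush border are membrane enzymes that finish the digestion of dietary protein at the surface of absorptive enterocytes. Pancreatic proteases leave short peptides in the gut lumen. Aminopeptidases, dipeptidases, carboxypeptidases and endopeptidases on the microvilli then trim these to free amino acids, dipeptides and tripeptides, which carriers in the same membrane take up. The enzymes are made mainly by mature enterocytes of the villus, and their transcripts are classical markers of absorptive differentiation. The 9 genes described here were chosen by symbol, with no measured value in the rule but with earlier results of these data known. They are *Anpep*, *Enpep*, *Xpnpep2*, *Dpp4*, *Naaladl1*, *Ace*, *Mep1a*, *Mep1b* and *Ggt1*. All 9 were found among the 17759 genes listed for crypts, the 17423 listed for day 1 and the 17612 listed for day 3, and all 9 passed the minimum mean of 10 in each table through either genotype alone.

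Bulk RNA sequencing was carried out on 18 libraries of duodenal epithelium from 3 WT (*Mtgr1*+/+) mice and 3 *Mtgr1*-/- mice, a germline null of the transcriptional corepressor MTGR1 that is not limited to the epithelium. The study used littermates of both sexes, at least 8 weeks old. Each mouse gave freshly isolated crypts and enteroids, which are epithelial organoids grown from crypts in Matrigel with R-spondin, Noggin and EGF, harvested 24 h (day 1) and 72 h (day 3) after plating. WT and *Mtgr1* null cultures received the same medium, and there were 3 libraries in each of the 6 groups. Levels are given as the deposited normalized counts, which are gene counts divided by 1 factor per library within the table of each time point. The genotypes of a time point were set against each other by limma after taking log2(normalized count + 1), with p-values adjusted by the Benjamini-Hochberg method over all genes tested, and a threshold of 0.05. A log2 difference below is *Mtgr1* null minus WT on that scale, and SE is its standard error.

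Libraries held 22035316 to 29661084 reads on genes. *Cbfa2t2*, the symbol of *Mtgr1*, was not lower in the libraries labelled *Mtgr1* null: its normalized counts were 614, 523 and 595 in WT and 697, 466 and 534 in *Mtgr1* null in crypts, and its log2 differences were -0.05, 0.37 and 0.06 at the 3 time points (adjusted p = 0.917, 0.0557 and 0.686, limma). A gene-level count does not show which exons are read, so genotype is used here as the label of each library, and "*Mtgr1* null" stands for the libraries labelled so. *Xist*, which is expressed from the inactive X chromosome of females, lay at 9047 to 14831 in the libraries of WT mouse 3 and *Mtgr1* null mouse 1 at each time point and at 19.6 or below in all others. Both genotypes thus held 1 such mouse. All 8 enterocyte markers were detected in each group. Summed fibroblast markers reached at most 71.4, endothelial markers 204 and smooth muscle and pericyte markers 63.3 in any library. Immune markers were higher in crypts, where all 6 were detected and summed to 1019 to 6641 in WT and 572 to 932 in *Mtgr1* null. In bulk samples such as these, more cells of a type and more RNA per cell cannot be told apart.

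The promoters of 7 of the 9 genes were found in the RefSeq table (GRCm38.p6), in 11 windows. Those of 3 genes are shown because these genes mark the range of responses described below: *Xpnpep2* had the largest and *Dpp4* the smallest difference at day 1, and *Enpep* lay closest to the average of the 9. Each line gives the 250 bases before the annotated start, 5′ to 3′ in the direction of transcription, at chrX:48108475-48108724 (plus strand), chr3:129332750-129332999 (minus strand) and chr2:62412232-62412481 (minus strand). Capitals mark the letters TATAAA on either strand.
Xpnpep2: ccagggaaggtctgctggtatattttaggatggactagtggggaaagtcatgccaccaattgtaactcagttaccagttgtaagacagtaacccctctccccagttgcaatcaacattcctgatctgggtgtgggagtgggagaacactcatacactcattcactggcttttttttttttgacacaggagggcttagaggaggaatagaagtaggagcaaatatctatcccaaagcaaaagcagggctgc
Enpep: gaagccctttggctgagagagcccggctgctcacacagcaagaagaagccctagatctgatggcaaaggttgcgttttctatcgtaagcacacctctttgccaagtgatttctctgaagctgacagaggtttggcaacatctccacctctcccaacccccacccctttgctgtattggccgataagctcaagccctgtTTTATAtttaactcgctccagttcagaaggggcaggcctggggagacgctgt
Dpp4: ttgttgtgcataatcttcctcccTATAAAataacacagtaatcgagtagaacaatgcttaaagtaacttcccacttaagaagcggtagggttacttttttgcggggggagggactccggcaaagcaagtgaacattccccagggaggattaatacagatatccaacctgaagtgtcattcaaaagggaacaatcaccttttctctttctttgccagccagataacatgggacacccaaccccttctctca
The letters TATAAA were searched on both strands of windows from 250 bases before to 50 bases after the start. They were found in 4 of the 11 windows (1 each of *Ace*, *Dpp4*, *Enpep* and *Ggt1*) and in 13.6% of all 32851 windows of the same length. In *Enpep* they lay 52 to 47 bases before the start, on the opposite strand, and in *Dpp4* 227 to 222 bases before it. Letters bound by enterocyte factors were rarer. CAAAGTNCA (HNF4) was in 1.41% of all windows, GTTAATNAT (HNF1) in 0.801%, TTTATTG (CDX) in 4.60%, AGATAAG, bound by GATA factors, in 3.04% and TGATAAG, bound by the same family, in 2.30%. Each of these was in 0 of the 11 windows of the 9 genes. TTTATGG (CDX) was in 2.75% of all windows and in 1 of the 11, that of *Mep1a*. These are matches of letters in short windows and nothing more.

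At day 1, all 9 peptidase transcripts were higher in *Mtgr1* null than in WT enteroids, by 2.75-fold for *Dpp4* to 17.2-fold for *Xpnpep2*, with a median log2 difference of 2.31. At day 3, all 9 were again higher than in WT, by 1.65-fold to 6.89-fold, with a median of 1.96. In crypts the median was 0.95, and 1 of 9 genes, *Xpnpep2*, passed the threshold. Of all genes tested, 30.0% passed in this direction at day 1, 29.9% at day 3 and 1.58% in crypts. The median over all genes tested was -0.0080 at day 1, 0.0026 at day 3 and 0.0076 in crypts. All 3 *Mtgr1* null libraries lay above every WT library for 9 of 9 genes at day 1 and at day 3, as they did for 34.2% and 34.6% of all genes, and for 6 of 9 genes in crypts, as for 12.0% of all genes. The 9 of 9 at day 1 and at day 3 held in each of the 19 alternative settings tried.

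**Figure D1:**
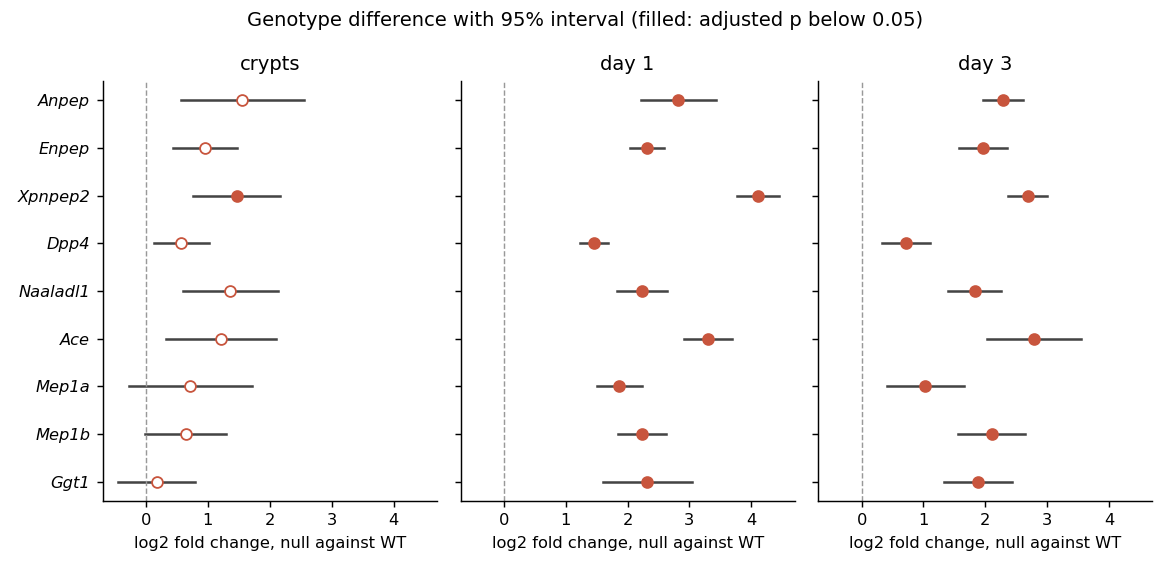
Log2 fold change of the 9 peptidases, *Mtgr1* null against WT, in crypts, day 1 and day 3 enteroids (x axis, log2 scale), with 95% confidence intervals as horizontal lines and filled points for an adjusted p below 0.05 (limma, 3 against 3 libraries). All points at day 1 and day 3 are filled and lie between 0.72 and 4.11, whereas in crypts the point of *Xpnpep2* alone is filled.

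Aminopeptidases cut single residues from the amino end of peptides. *Anpep* encodes aminopeptidase N (CD13), an abundant enzyme of the microvillus that prefers neutral residues (ENSMUSG00000039062.15, chr7:79821803-79861059, minus strand, GRCm38). At day 1, its normalized counts were 9089.6, 9267 and 9657 in WT and 65132, 44101 and 100074 in *Mtgr1* null. The 3 WT libraries lay close together while the *Mtgr1* null libraries differed among themselves, and the groups were far apart. The log2 difference was 2.82 (SE 0.26, adjusted p = 0.000207, limma). The counts at day 3 were 6528, 6369.9 and 7514 in WT and 26854, 34911 and 38408 in *Mtgr1* null, a log2 difference of 2.28 (adjusted p = 1.6e-05, limma). Crypts had 38131, 60372 and 21716 in WT and 104021, 78348 and 156315 in *Mtgr1* null. The crypt groups did not overlap, but WT mice spread from mouse 3 to mouse 2 by more than at any later time, and the log2 difference of 1.56 did not pass (95% interval 0.56 to 2.55, adjusted p = 0.0956, limma).

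*Enpep* encodes aminopeptidase A, which removes acidic residues and is also known for cleaving angiotensin II (ENSMUSG00000028024.14, chr3:129269175-129332720, minus strand). Counts at day 1 were 7301, 5809.8 and 6644 in WT and 32890.3, 29472 and 35695 in *Mtgr1* null, with little spread in either group. Its log2 difference there was 2.31 (SE 0.12, adjusted p = 2.85e-05, limma). Day 3 values were 4863, 4387 and 6009 in WT and 17169, 24993 and 17664 in *Mtgr1* null, a log2 difference of 1.96 (adjusted p = 6.61e-05, limma). Crypt values were 12303, 14582 and 13562 in WT and 21537, 22204 and 36696 in *Mtgr1* null. Each *Mtgr1* null crypt library was above each WT one, with mouse 3 standing apart above the other two, and the log2 difference was 0.95 (adjusted p = 0.0616, limma, above the threshold).

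*Xpnpep2*, on the X chromosome, encodes membrane-bound aminopeptidase P, which releases a residue that precedes proline (ENSMUSG00000037005.16, chrX:48108725-48136981, plus strand). It was the least abundant of the 9 in WT and had the largest difference at day 1. Day 1 counts were 144, 134 and 101 in WT and 2246, 2004 and 2289.7 in *Mtgr1* null. Its log2 difference of 4.11 (SE 0.15, adjusted p = 7.99e-06, limma) ranked 45 among the 12587 genes tested. Day 3 counts were 209.7, 203 and 198 in WT and 1239, 1602 and 1142 in *Mtgr1* null, a log2 difference of 2.68 (adjusted p = 8.58e-06, limma). In crypts the values were 456, 401 and 299 in WT and 737, 984 and 1595 in *Mtgr1* null, with *Mtgr1* null mouse 3 well above mouse 1. The log2 difference of 1.46 was the one called in crypts (adjusted p = 0.0403, limma). This call was lost when any library other than that of *Mtgr1* null mouse 1 was left out (adjusted p = 0.0670 to 0.117, limma), and also once the mouse number entered as a block (adjusted p = 0.0793, limma). *Xist*-high mice were split evenly, and at day 1 and day 3 the call also held with *Xist* as a covariate.

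*Dpp4* encodes dipeptidyl peptidase 4 (CD26), which cuts dipeptides after proline or alanine and inactivates incretin hormones (ENSMUSG00000035000.8, chr2:62330073-62412231, minus strand). Its WT counts were the tightest of the 9 genes in enteroids. Values at day 1 were 2692, 2718 and 2662 in WT and 7273, 6716 and 8289.7 in *Mtgr1* null, a log2 difference of 1.46 (SE 0.09, adjusted p = 6.38e-05, limma). At day 3 the counts were 2549, 2574 and 2626 in WT and 3684, 5807 and 3599 in *Mtgr1* null. Here *Mtgr1* null mouse 2 was well above the other two, and the log2 difference of 0.72 was the smallest of the 9 (95% interval 0.33 to 1.11, adjusted p = 0.00746, limma). In crypts the counts were 9227, 9814 and 7179 in WT and 11440.5, 11426 and 16430.1 in *Mtgr1* null. These groups did not overlap either, and the log2 difference was 0.57 (adjusted p = 0.159, limma).

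*Naaladl1* belongs to the family of glutamate carboxypeptidase II and is a membrane peptidase of the intestine (ENSMUSG00000054999.2, chr19:6105782-6115792, plus strand). The day 1 counts were 714, 565 and 798 in WT and 2934, 2835 and 4062 in *Mtgr1* null, and those at day 3 894, 1001 and 1493 in WT and 3438, 4448 and 3897 in *Mtgr1* null. Groups were well separated at these times. The log2 differences were 2.24 and 1.83, in the same order (adjusted p = 0.000111 and 0.000146, limma). Crypt counts were 1123, 1166 and 1776 in WT and 2109.7, 3967 and 4762 in *Mtgr1* null. They did not overlap, and *Mtgr1* null mouse 1 lay nearest to WT. The log2 difference was 1.37 (adjusted p = 0.0665, limma), which did not pass, and a block for the mouse number brought it past the threshold (adjusted p = 0.0224, limma).

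*Ace* encodes angiotensin-converting enzyme, a peptidase that removes dipeptides from the carboxyl end (ENSMUSG00000020681.14, chr11:105967945-105989964, plus strand). At day 1 the counts were 1188, 1084 and 979 in WT and 10908, 8327 and 13378 in *Mtgr1* null. Every *Mtgr1* null library was far above the highest WT one, with a log2 difference of 3.30 (SE 0.17, adjusted p = 2.62e-05, limma), second in size to that of *Xpnpep2*. Day 3 values were 1162, 922 and 1686 in WT and 6789, 14239.8 and 6128 in *Mtgr1* null, with *Mtgr1* null mouse 2 above the rest and a log2 difference of 2.78 (adjusted p = 0.000287, limma), the largest of the 9 on that day. In crypts, 5658, 6019 and 11084 in WT and 19530, 10217 and 23860 in *Mtgr1* null were counted. The groups overlapped there, since WT mouse 3 was above *Mtgr1* null mouse 2, and the log2 difference of 1.22 did not pass (adjusted p = 0.136, limma).

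Meprins are zinc endopeptidases that cut within peptides. *Mep1a* encodes the alpha subunit, which can be secreted (ENSMUSG00000023914.16, chr17:43474324-43502812, minus strand), and *Mep1b* the beta subunit, which anchors the enzyme in the membrane (ENSMUSG00000024313.8, chr18:21061923-21100199, plus strand). Day 1 counts of *Mep1b* were 6939.6, 5232 and 5845 in WT and 29591, 22329.8 and 32952 in *Mtgr1* null, a log2 difference of 2.23 (adjusted p = 0.000104, limma). Those of *Mep1a* were 159, 235 and 181 in WT and 679, 729 and 673 in *Mtgr1* null, a log2 difference of 1.87 (adjusted p = 0.000147, limma). Both subunits were thus separated by genotype at day 1, the beta subunit at far higher counts. At day 3 *Mep1b* was at 2766, 2448 and 3274 in WT and 9725, 18156 and 9944 in *Mtgr1* null (log2 difference 2.10, adjusted p = 0.000216, limma). On the same day *Mep1a* was at 453, 526 and 439 in WT and 773, 1577 and 735 in *Mtgr1* null (log2 difference 1.03, adjusted p = 0.0112, limma). Both subunits were highest in *Mtgr1* null mouse 2 that day, and neither overlapped WT. In crypts neither passed: *Mep1b* was at 16006, 18509 and 9283 in WT and 19541, 19775 and 27064 in *Mtgr1* null and *Mep1a* at 426, 428 and 1239 in WT and 803, 1017 and 1239 in *Mtgr1* null. WT mouse 3 had the lowest *Mep1b* and the highest *Mep1a* of the WT crypts, and the *Mep1a* groups overlapped.

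The ratio of *Mep1b* to *Mep1a* counts therefore varied between mice. In WT crypts it was 37.5, 43.3 and 7.49, and in *Mtgr1* null crypts 24.3, 19.4 and 21.8. At day 1 it was 43.6, 22.2 and 32.3 in WT and 43.6, 30.6 and 49.0 in *Mtgr1* null. At day 3 it was 6.11, 4.65 and 7.45 against 12.6, 11.5 and 13.5. The groups were separate at day 3 alone (two-sided exact permutation test, p = 1, 0.5 and 0.1 for crypts, day 1 and day 3, n = 3 each), and 0.1 is the smallest p that 3 against 3 allows.

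*Ggt1* encodes gamma-glutamyltransferase 1, which starts the breakdown of glutathione outside the cell (ENSMUSG00000006345.10, chr10:75561604-75586200, plus strand). Its day 1 counts were 2482, 2034 and 1067 in WT and 9807, 6601 and 10338 in *Mtgr1* null. WT mouse 3 was clearly below its group, and the *Mtgr1* null libraries were all above it and the other WT libraries, with a log2 difference of 2.32 (SE 0.31, adjusted p = 0.00072, limma). The day 3 counts were 1623, 1341 and 1750.2 in WT and 4849, 8769.8 and 4464 in *Mtgr1* null, a log2 difference of 1.88 (adjusted p = 0.000412, limma). Crypts had 8489, 8885 and 8404 in WT and 9966, 6437 and 14215 in *Mtgr1* null. *Mtgr1* null crypts lay on both sides of the narrow WT range, and the log2 difference was 0.17 (95% interval -0.45 to 0.80, adjusted p = 0.784, limma), the smallest of the 9 in crypts.

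Among *Mtgr1* null mice, mouse 3 had the highest crypt value for all 9 genes and the highest day 1 value for 8 of 9, mouse 2 the lowest day 1 value for 8 of 9, and mouse 2 the highest day 3 value for 8 of 9. The 8 enterocyte markers matched this order in part. Mouse 3 was highest in *Mtgr1* null crypts for 6 of 8 markers, mouse 2 was lowest at day 1 for 8 of 8, and mouse 2 was highest at day 3 for 8 of 8. At day 1, however, mouse 1 was highest for 5 of 8 markers and for 0 of 9 peptidases, and in crypts mouse 2 was lowest for 8 of 8 markers and for 4 of 9 peptidases, with mouse 1 lowest for the other 5. No WT mouse was highest for more than 5 of 9 peptidases in crypts or at day 1, and at day 3 WT mouse 3 was highest for 7. These are orders of normalized counts. How often each mouse was highest or lowest over all genes was not counted. In WT crypts, mouse 3 was highest for 3 of the 9 peptidases and lowest for 5, and this library also had the immune marker sum of 6641, against 1116 and 1019 in the other two. Without this library 1 of 9 peptidases passed in crypts, as with it, but it was *Mep1a* (log2 difference 1.23) in place of *Xpnpep2*, and 1.71% of all genes were called higher. Immune marker sums at day 1 were 144 to 301 in WT and 92.1 to 390 in *Mtgr1* null. Of 5 tested markers 1 was higher, *Csf1r* (0.864 against 25.2), beside 30.0% of all genes. It was also higher at day 3 (3.78 against 59.1), where 29.9% of all genes were. At both times *Csf1r* met the minimum mean of 10 only through the *Mtgr1* null libraries, where it was high. *Pdgfrb*, a pericyte gene, was the 1 tested of 5 smooth muscle and pericyte markers. It was higher at day 1 (11.8 against 35.4, adjusted p = 0.0286, limma, up to 0.119 over the alternatives), as were 30.0% of all genes. It was not called in crypts or at day 3 (adjusted p = 0.587 and 0.256, limma). The part of these cells in the peptidase differences was not tested.

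The crypt count depended on the tool, as did the share of all genes called higher. EdgeR on reads recovered from the tables called 1 of 9 genes higher (182 of all 12980 genes). DESeq2 on the same reads called 6 of 9, *Anpep*, *Enpep*, *Dpp4*, *Ace*, *Xpnpep2* and *Naaladl1* (4.51% of all genes). Precision weights per library also gave 6 (7.57%), and an unadjusted p below 0.05 with a higher level was found for 6 (8.53%). A block for the mouse number gave 2 of 9, *Ace* (adjusted p = 0.0469, limma) and *Naaladl1* (adjusted p = 0.0224, limma), against 1.34% of all genes. These were not called without the block, and *Xpnpep2* lost its call. In comparisons of genotypes within a time point, 0 of 9 peptidases were called lower under limma or any alternative, while limma called 3.15% of all genes lower in crypts, 28.9% at day 1 and 29.1% at day 3.

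**Figure D2:**
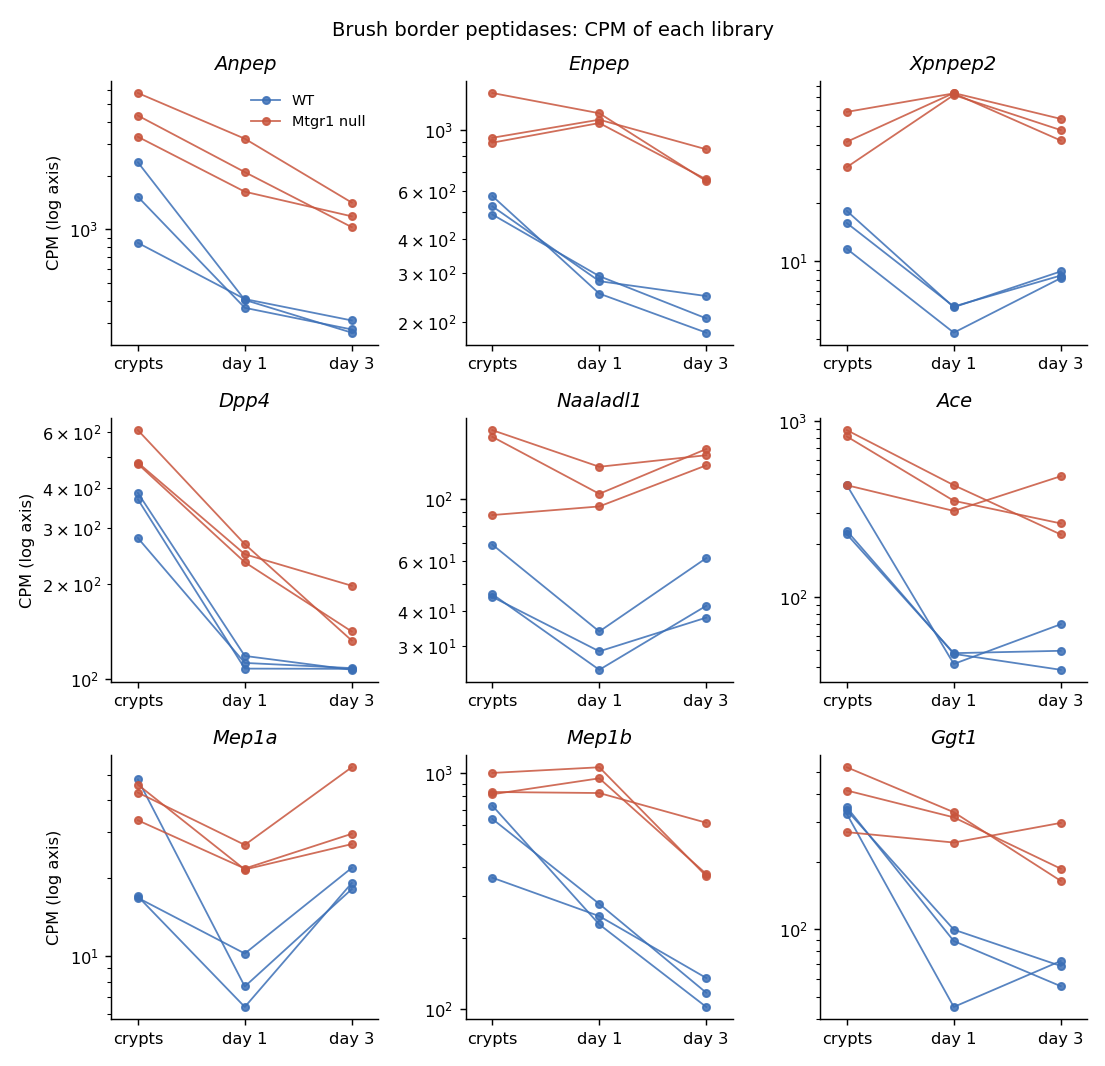
Normalized counts of the 9 peptidases scaled to a total of 1000000 per library (CPM, y axis, log scale) in crypts, day 1 and day 3 enteroids (x axis), with each line joining the libraries of 1 mouse, WT in blue and *Mtgr1* null in red. Lines of the 2 genotypes are apart for all 9 genes at day 1 and day 3. The WT lines fall from crypts to day 1 in 27 of 27 cases (9 genes in the same 3 mice) against 19 of 27 for *Mtgr1* null.

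Because each table was normalized on its own, levels across time are given as CPM, which scales each library to a total of 1000000, and are a description. From crypts to day 1, 27 of 27 WT values (9 genes, 3 mice) fell, with a median log2 change of -1.44, whereas 19 of 27 *Mtgr1* null values fell, with a median of -0.49. From crypts to day 3, 25 of 27 WT values and 21 of 27 *Mtgr1* null values fell, and the 2 WT values that did not were those of *Mep1a* in mouse 1 and mouse 2. The 27 values of a genotype come from the same 3 mice and are not independent. The share of all genes that fell in CPM was not counted. From crypts to day 1, *Ace* changed by -2.65 ± 0.63 in WT and -0.91 ± 0.38 in *Mtgr1* null (mean ± SD over 3 mice, log2). For *Ggt1* the change was -2.20 ± 0.58 and -0.40 ± 0.26. *Xpnpep2* went in opposite directions, with -1.50 ± 0.13 in WT and 0.80 ± 0.46 in *Mtgr1* null. *Enpep* and *Mep1b* moved little in *Mtgr1* null, by 0.07 ± 0.27 and 0.10 ± 0.12, while in WT they moved by -0.94 ± 0.22 and -1.14 ± 0.57. On log2(normalized count + 1) in place of CPM, the change of all 3 *Mtgr1* null mice lay above that of every WT mouse for 8 of 9 genes. This was so for 27.1% of all genes, and *Mep1a* was the exception among the 9. In CPM, *Anpep* (lowest *Mtgr1* null -1.05, highest WT -1.04) and *Naaladl1* (-0.67 and -0.64) overlapped as well. From crypts to day 3, on normalized counts, separation held for 5 of 9 genes (22.4% of all genes). *Mep1b* was among them but overlapped in CPM (-1.45 and -1.41). From day 1 to day 3, on normalized counts, the change of all 3 *Mtgr1* null mice lay above that of every WT mouse for 0 of 9. In CPM it lay below that of every WT mouse for *Xpnpep2* (highest *Mtgr1* null -0.44, lowest WT 0.53). The same held in CPM for *Dpp4* (-0.33 and -0.145) and, narrowly, for *Mep1a* (0.99 and 1.09). How many of all genes lay below in this way was not counted.

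From day 1 to day 3 the 9 genes split in WT. *Mep1a* changed in CPM by 1.31 ± 0.25 on the log2 scale (mean ± SD, 3 mice), *Xpnpep2* by 0.69 ± 0.21 and *Naaladl1* by 0.68 ± 0.25. *Mep1b* went the other way, by -1.09 ± 0.20, and so did *Anpep*, by -0.47 ± 0.12. In *Mtgr1* null, *Mep1a* changed by 0.59 ± 0.36, *Mep1b* by -1.10 ± 0.60 and *Xpnpep2* by -0.62 ± 0.18. These are changes in share of each library and carry no test.

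Whether the genotype difference itself changed with time was tested in 1 limma fit over the 18 libraries, in which the mouse entered as a random effect. It was larger at day 1 than in crypts for 7 of 9 genes, against 20.3% of all genes called in this direction. The log2 difference grew by 2.64 for *Xpnpep2* (adjusted p = 0.000301, limma), by 2.14 for *Ggt1* (adjusted p = 0.00305, limma), by 2.08 for *Ace* (adjusted p = 0.00556, limma) and by 1.58 for *Mep1b* (adjusted p = 0.00478, limma). Smaller increases were called for *Enpep* (1.36), *Anpep* (1.264) and *Dpp4* (0.88), with adjusted p = 0.0023, 0.0423 and 0.0108 (limma). *Mep1a* (1.15, adjusted p = 0.0726, limma) and *Naaladl1* (0.87, adjusted p = 0.0833, limma) did not pass. With the mouse number as a block in place of the random effect, *Anpep* lost its call (adjusted p = 0.0507, limma) and *Naaladl1* gained one (adjusted p = 0.0206, limma), and 20.7% of all genes were called. With the 2 mice per genotype of low *Xist* alone, 2 of 9 passed, *Xpnpep2* and *Mep1b*, against 4.89% of all genes.

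Day 3 against crypts, which shares the crypt libraries with the comparison above, gave 5 of 9 genes with a larger difference at day 3, against 16.5% of all genes. They were *Ggt1* (1.70), *Ace* (1.57), *Mep1b* (1.46), *Xpnpep2* (1.22) and *Enpep* (1.01), with adjusted p from 0.0112 to 0.0300 (limma). This count fell to 0 without WT mouse 2 (8.48% of all genes), to 1 without WT mouse 1 (8.47%) and to 2 without *Mtgr1* null mouse 2 (12.7%). Between day 3 and day 1, 0 of 9 differences were called larger and 0 smaller by limma, and 0.0247% of all genes were called larger and 0.00823% smaller. An unadjusted p below 0.05 was found for 2 genes, *Xpnpep2* (-1.42) and *Dpp4* (-0.74), both with a smaller difference at day 3, and these 2 were called without *Mtgr1* null mouse 2, when 3.50% of all genes were called smaller.

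**Figure D3:**
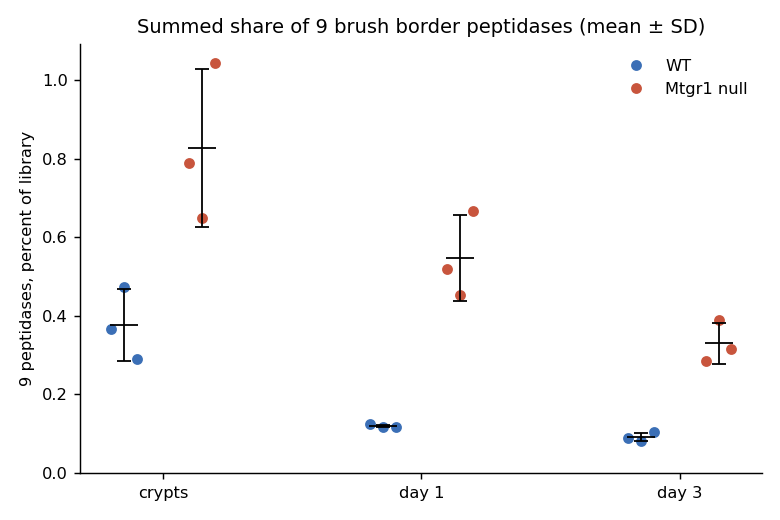
Summed share of the 9 peptidases in each library (y axis, percent of all normalized counts) in crypts, day 1 and day 3 enteroids (x axis), with 1 point per mouse, bars for the mean ± SD (n = 3), WT in blue and *Mtgr1* null in red. The share is 0.120% in WT and 0.546% in *Mtgr1* null at day 1, and every *Mtgr1* null point lies above the WT points of its time.

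Together the 9 genes took 0.376% ± 0.0920 of all counts in WT crypts and 0.827% ± 0.2003 in *Mtgr1* null crypts (SD, n = 3). In WT enteroids the share was 0.120% ± 0.00300 at day 1 and 0.0915% ± 0.0107 at day 3. In *Mtgr1* null enteroids it was 0.546% ± 0.109 and 0.330% ± 0.0526. *Mtgr1* null day 1 libraries, at 0.454% to 0.667%, each lay above 2 of the 3 WT crypt libraries, which spanned 0.289% to 0.472%. *Anpep* made up 31.1% to 53.7% of this sum in the 6 groups by mean count, without correction for length.

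As CPM per kilobase of exon, the order of levels in WT crypts was *Anpep* (382 ± 185, SD, n = 3), *Mep1b* (219 ± 73.1), *Enpep* (113 ± 8.76), *Ggt1* (99.1 ± 3.44), *Ace* (56.2 ± 21.7), *Dpp4* (54.4 ± 9.12), *Naaladl1* (21.3 ± 5.46), *Mep1a* (7.90 ± 5.20) and *Xpnpep2* (3.11 ± 0.684). Ranges of *Anpep* and *Mep1b*, and of *Ace* and *Dpp4*, overlapped. In WT enteroids of day 1, *Mep1b* (95.7 ± 9.72) and *Anpep* (94.9 ± 5.79) led with overlapping ranges and *Ace* ranked 7 of 9 (8.596 ± 0.663). In *Mtgr1* null enteroids of day 1, *Anpep* (559 ± 197) and *Mep1b* (359 ± 44.9) led, *Ace* was at 68.5 ± 11.8, and *Xpnpep2* (14.99 ± 0.189) was above *Mep1a* (6.78 ± 0.866), the reverse of their order in WT (1.09 ± 0.182 and 2.35 ± 0.571). These levels rest on the exon length of each gene model and not on the isoforms expressed.

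Other genes of protein digestion were compared by lists chosen by function. Their counts are to be read beside the shares of all genes called, which at day 1 were 30.0% higher and 28.9% lower in *Mtgr1* null than in WT. The corresponding day 3 shares were 29.9% and 29.1%. Those in crypts were 1.58% and 3.15%, and DESeq2 called 4.51% of all genes higher there. Of the other membrane peptidases, 10 were tested at day 1, and 5 were higher and 1 lower, with a median log2 difference of 0.31. Those higher included *Dpep1*, a dipeptidase (log2 difference 3.10), *Mme*, the endopeptidase neprilysin (2.05), and *Cpm*, carboxypeptidase M (1.01). At day 3, 4 were higher and 1 lower of 10. In crypts 1 was higher, *Dpep1* (1.17, adjusted p = 0.036, limma, up to 0.181 over the alternatives), and 1 lower, *Tmprss15*. *Mme* had a log2 difference of 0.02 in crypts.

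*Tmprss15* encodes enteropeptidase, the duodenal enzyme that activates trypsinogen, and it did not follow the 9. In crypts it was 1743 ± 956 in WT and 45.4 ± 57.3 in *Mtgr1* null (SD, n = 3), a log2 difference of -6.03 (adjusted p = 0.0296, limma, 0.000480 to 0.116 over the alternatives). It was 62.7 ± 32.1 against 23.6 ± 8.23 at day 1, again lower (-1.27, adjusted p = 0.042, limma, up to 0.148 over the alternatives). At day 3 it was 41.8 ± 19.2 against 87.1 ± 17.9, higher in *Mtgr1* null (1.12, adjusted p = 0.0209, limma, up to 0.0781). Its enteroid levels were thus low in both genotypes.

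Of 20 soluble peptidases, which act inside the cell, 9 were higher and 3 lower at day 1, with a median of 0.011. *Pepd*, which splits dipeptides ending in proline (1.46), *Cndp2*, a cytosolic dipeptidase (1.35), *Pgpep1* (1.17) and *Lap3*, leucine aminopeptidase (1.16), had the largest differences. *Blmh* (-0.53), *Thop1* (-0.43) and *Nln* (-0.38) were lower. *Xpnpep1*, the cytosolic counterpart of *Xpnpep2*, had a log2 difference of 1.01. At day 3, 8 were higher and 1 lower. In crypts limma called 0 of 20 (2 at an unadjusted p below 0.05), edgeR 0 and DESeq2 2 higher.

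Carriers take up the products of these enzymes. Of 12 peptide and amino acid carriers, 10 were higher and 1 lower at day 1, with a median of 1.73. *Slc15a1*, the peptide transporter PEPT1, had a log2 difference of 3.27, *Slc6a20a*, an imino acid carrier, of 2.65, *Slc6a19*, the main neutral amino acid carrier of the brush border, of 2.38, and *Slc16a10* of 2.21. *Slc1a1*, a glutamate carrier, was lower, with a log2 difference of -1.66. At day 3, 9 were higher and 1 lower of 12. In crypts limma called 0 of 11 (6 at an unadjusted p below 0.05), edgeR 0 and DESeq2 5 higher.

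Of 13 transcription factors of enterocytes, 8 were higher and 1 lower at day 1, with a median of 0.39, and 6 and 1 at day 3. *Maf* (2.01), *Creb3l3* (1.75), *Ppara* (1.23) and *Klf4* (1.16) had the largest log2 differences at day 1, and *Cdx1* was lower (-0.75). In crypts limma, edgeR and DESeq2 each called 0 of 13, and 0 had an unadjusted p below 0.05. All 8 general enterocyte markers were higher in *Mtgr1* null than in WT on both days, with medians of 2.01 at day 1 and 1.99 at day 3. Their summed counts were 176270 to 232210 in WT and 518070 to 870410 in *Mtgr1* null at day 1, and 117210 to 127720 against 393450 to 662950 at day 3. In crypts the sums overlapped, at 330710 to 453680 and 306750 to 558860, and limma called 0 of 8 (2 at an unadjusted p below 0.05), edgeR 0 and DESeq2 2 higher. How far the genotype difference of the peptidases exceeded that of these markers was not tested.

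**Figure D4:**
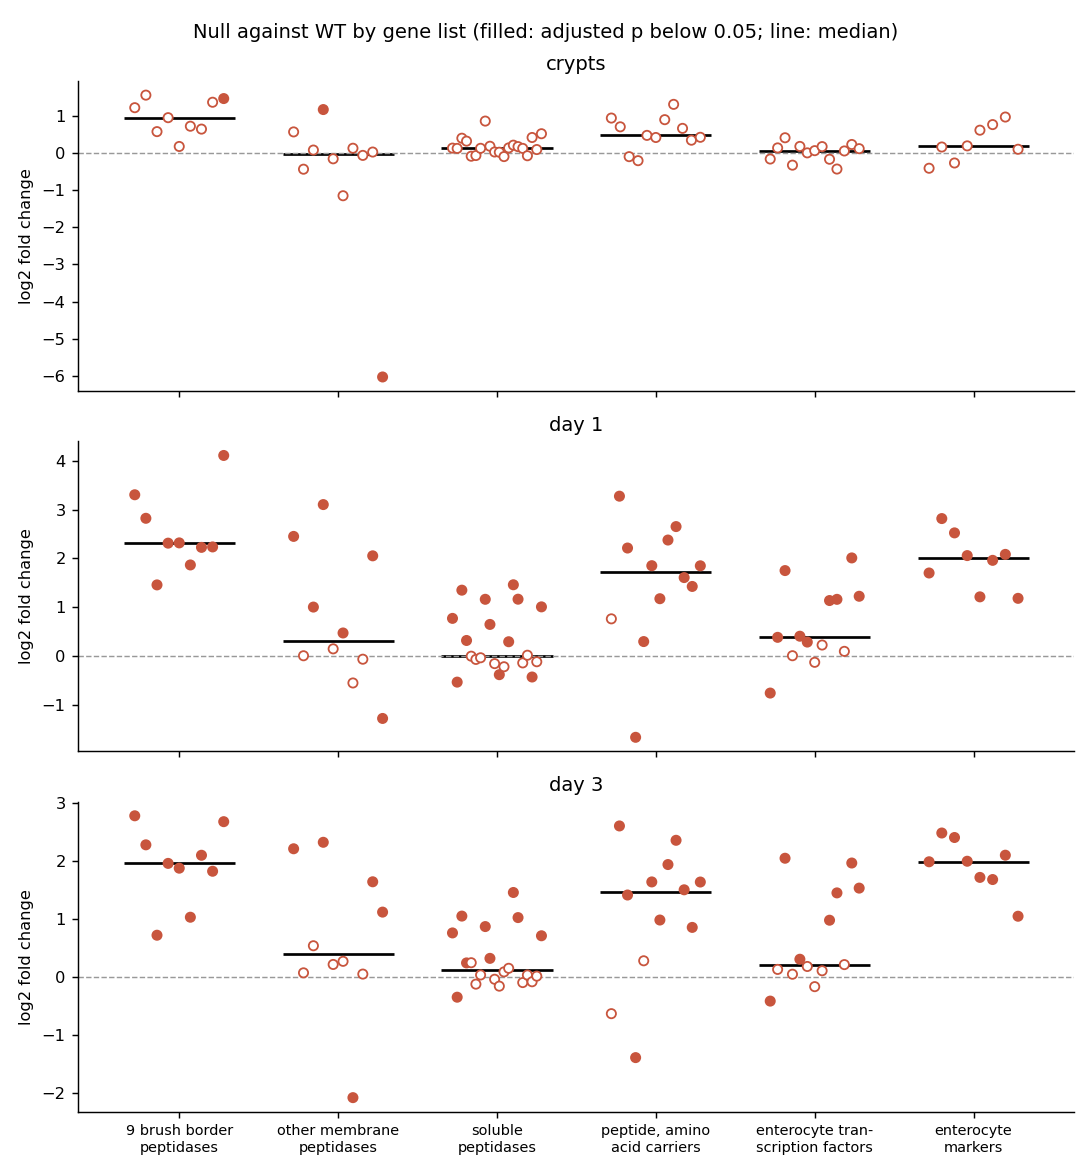
Log2 fold change of single genes (y axis, *Mtgr1* null against WT) in 6 gene lists (x axis), in crypts, day 1 and day 3 enteroids from top to bottom, with filled points for an adjusted p below 0.05 and a line at each list's median. At day 1 the medians are 2.31 for the 9 brush border peptidases, 0.31 for other membrane peptidases, 0.011 for soluble peptidases, 1.73 for carriers, 0.39 for transcription factors and 2.01 for enterocyte markers.

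Among the 9 genes, *Enpep* lay closest to their mean profile over the 18 libraries, with a root mean square distance of 0.115 on the log2 scale after centring on the WT mean of each table, and *Xpnpep2* farthest, with 0.770. Of 9884 other genes with a mean of at least 100 at each time point, *Bco2* (0.240), *Mov10* (0.259), *Asah2* (0.265), *Castor2* (0.269) and *Crip1* (0.272) were nearest to that mean profile. The median distance of all of these genes was 1.37.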

How the data were processed

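The authors made stranded mRNA libraries from crypts and enteroids of 3 WT and 3 *Mtgr1*-/- mice, sequenced single reads of 50 bases, trimmed with fastp 0.20.0, quantified with Salmon 1.3.0 and summarised per gene for DESeq2 1.26.0. The deposited signal is a normalized count, divided by 1 factor per library within each time point. Deposited columns of the authors' own comparisons hold log2 fold changes with standard errors, a Wald score, p-values and adjusted p-values, and their mean signal per gene; none of these was used.

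Groups and mouse numbers came from the labels. For genes averaging 10 or more, log2(normalized count + 1) was fitted with limma 3.58.1 (trend) in R 4.3.3, two-sided, 3 against 3. Fold changes on this scale understate those of low genes. Changes between time points were fitted on 12145 genes and the mouse entered as a random effect, whose correlation was -0.0048. Values of all 18 libraries were whole multiples of a step to within 1e-06 reads (100%), and these recovered reads served edgeR 4.0.16 and DESeq2 1.42.0. In 2 libraries, WT crypt mouse 2 and *Mtgr1* null day 3 mouse 2, the step lay so near 1 that this alone does not show recovery.

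Deviations from group means correlated between same-numbered WT and *Mtgr1* null mice by 0.116 to 0.231 at day 1, where they met the criterion for pairing (every pair above 0.1), by 0.0764 to 0.346 in crypts and by -0.0156 to -0.0023 at day 3, where they did not. The labels do not say what a shared number means. The comparisons reported carry no block for it, and the blocked fit is an alternative. Gene models were those of GENCODE M21 (GRCm38), matched by identifier. The scripts were tested on simulated data. The 9 genes and all lists were chosen with earlier results of these data known. Named genes of each list were the up to 4 with the largest called change in each direction at day 1, and *Xpnpep1* was named after its value was seen. A gene among the other membrane peptidases that this rule names is not reported here. Alternatives were libraries left out, pseudocounts of 0.1 and 8, other filters, median-ratio and quantile scaling, no trend, precision weights, a mouse block, *Xist* as a covariate, no mouse effect, the count tests and, added after the data were seen, the low-*Xist* libraries alone.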

Additional observations from a re-analysis of the deposited data

Results flagged for a closer look

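For 7 of the 9 peptidases the genotype difference was larger at day 1 than in crypts by limma's test of that change, against 20.3% of all genes. The increase on the log2 scale was 1.264 for *Anpep*, 1.36 for *Enpep*, 0.88 for *Dpp4*, 2.08 for *Ace*, 1.58 for *Mep1b*, 2.64 for *Xpnpep2* and 2.14 for *Ggt1*. For 5 it was also larger at day 3 than in crypts, by 1.01 for *Enpep*, 1.57 for *Ace*, 1.46 for *Mep1b*, 1.22 for *Xpnpep2* and 1.70 for *Ggt1*. With the mouse number as a block, *Anpep* did not pass for day 1 against crypts (adjusted p = 0.0507, limma) and *Naaladl1* did (adjusted p = 0.0206, limma). The day 3 count of 5 stands against 16.5% of all genes. With the low-*Xist* libraries alone, the count for day 1 against crypts was 2 of 9 (4.89% of all genes). Without WT mouse 2, the count for day 3 against crypts was 0 of 9 (8.48%). Both tests share the crypt libraries. With 3 libraries per group, single libraries were not tested for standing apart.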

How the results depend on the processing

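At day 1 and day 3, the count of 9 of 9 peptidases higher and the call and direction of each of the 9 genes were the same under all 19 alternatives. In crypts, where 1 of 9 passed, the count was 6 with DESeq2 on recovered reads, 6 with precision weights, 2 with quantile normalization, 2 with the mouse number as a block, 2 with the low-*Xist* libraries alone and 0 without a trend, and it ranged from 0 (without WT mouse 1, WT mouse 2 or *Mtgr1* null mouse 2) to 2 when 1 library was left out. Of all 12980 genes, 586 were called higher in crypts with DESeq2, 982 with precision weights and 251 with quantile normalization. The block called 174 and the fit without a trend 170, and the low-*Xist* libraries gave 133 of 12679. With 1 library left out, 55 to 229 of all genes were called higher in crypts. The larger difference at day 1 than in crypts (7 of 9) became 2 of 9 with the low-*Xist* libraries alone (4.89% of all genes), a fit of 12 libraries, and reached 8 at most. For day 3 against crypts (5 of 9) it was 3 with those libraries and ranged from 0 to 5 when 1 mouse was left out. Of all 12145 genes, 2000 were called larger at day 3 than in crypts by the main fit. With the low-*Xist* libraries it was 1065, and 1029 to 1885 when 1 mouse was left out. For day 3 against day 1, 0 to 2 genes were called smaller when 1 mouse was left out. The cause of these moves was not tested.

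With the mouse number as a replicate block, 9 of 9 passed at day 1 and at day 3, and 7, 5 and 0 of 9 for the changes between time points. In the last fits *Anpep* lost its call for day 1 against crypts (adjusted p = 0.0507, limma) and *Naaladl1* gained one (adjusted p = 0.0206, limma). Leaving out 1 mouse ended the call of *Anpep* for day 1 against crypts for WT mouse 1 or 2 and for *Mtgr1* null mouse 1 or 3, and that of *Dpp4* for WT mouse 1 or 2.

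Directions that turned were those of small, uncalled differences. When 1 library was left out, *Ggt1* in crypts ranged from -0.10 to 0.47 (log2), *Cbfa2t2* from -0.21 to 0.082 in crypts and from -0.024 to 0.15 at day 3. For day 3 against crypts, *Dpp4* ranged from -0.17 to 0.44 and *Mep1a* from -0.25 to 0.66, and for day 3 against day 1 *Mep1b* ranged from -0.58 to 0.13 and *Ggt1* from -0.95 to 0.00050. With precision weights *Cbfa2t2* was at 0.028 in crypts and -0.11 at day 3. With the low-*Xist* libraries *Mep1a* was at -0.25 for day 3 against crypts, and *Mep1b* and *Ggt1* at 0.20 and 0.21 for day 3 against day 1. Quantile normalization put *Mep1b* at 0.058 there. Of the other lists, carriers in crypts ranged from 0 to 7 higher, enterocyte markers in crypts from 0 to 3, soluble peptidases in crypts from 0 to 2, other membrane peptidases in crypts from 0 to 2 higher and 0 to 2 lower, soluble peptidases lower at day 1 from 1 to 7 and at day 3 from 0 to 6, transcription factors higher at day 1 from 4 to 9 and at day 3 from 5 to 9, and those lower in crypts from 0 to 3. Over all genes, 205 were called higher in crypts (55 to 982 over the alternatives), 3776 at day 1 (2293 to 4435) and 3826 at day 3 (3238 to 4605). The lowest number of recovered reads for any of the 9 genes in a library was 121.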
